A study of Homo sapiens with 80 samples.

Results

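Hormone-free U2OS cells that expressed GRgamma were compared with hormone-free U2OS cells that expressed GRalpha. The comparison rests on 8 of the 80 bead arrays of the series, chosen by their labels: 4 GRgamma and 4 GRalpha cultures given ethanol for 4 h, called 0 h here. Other arrays compared are those of GRgamma and GRalpha cultures given dexamethasone, a synthetic glucocorticoid, at 100 nM for 2, 4 or 24 h. Arrays of U2OS cells expressing A477T, 30iiB or E773R, given ethanol for 4 h or dexamethasone for 4 h, were compared too. Arrays of these alleles given dexamethasone for 2 or 24 h entered only the probe filter, the normalisation and the shared estimate of spread. Each such group held 4 arrays. U2OS cells come from a human osteosarcoma and make little glucocorticoid receptor themselves, so each line carries its receptor as an expressed allele. The sources used here do not give whether a line is 1 clone or a pool. The tests below measure the spread between these cultures, which may be technical.

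The glucocorticoid receptor (GR) is a transcription factor that waits in the cytoplasm with chaperones and enters the nucleus when it binds hormone. There it binds DNA as a dimer, or meets other factors on chromatin, and turns genes up or down. GRalpha is the common form. GRgamma arises by alternative splicing that adds an arginine to the DNA-binding domain. In A477T the surface through which receptors dimerise on DNA is altered, in 30iiB the N-terminal activation function, and in E773R the activation function that depends on ligand. The comparison without hormone asks what separated the lines before any ligand was added.

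Levels are normalised log2 signals of the brightest kept probe of a gene, and differences are GRgamma minus GRalpha on the log2 scale, with the SE of 1 limma model over all 80 arrays (n = 4 a group). A gene was called at a limma adjusted p under 0.05, in a two-sided test with Benjamini-Hochberg adjustment across the 12547 genes measured. Median signals before normalisation ran from 216.5 to 397 on the GRalpha arrays and from 116.5 to 337 on the GRgamma arrays, against 82 to 925.75 over the series. Between 15619 and 17042 probes were detected in GRalpha and between 13500 and 15941 in GRgamma. Correlations between arrays overlapped, at 0.941 to 0.972 within GRalpha, 0.954 to 0.973 within GRgamma and 0.929 to 0.981 between them. The part of signal and detection in the results was not tested. In bulk cultures, fewer cells with a transcript and less of it per cell cannot be told apart.

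The probe of NR3C1, the GR gene, read 8.42, 7.60, 7.48 and 8.33 in GRalpha and 5.07, 7.74, 7.63 and 7.25 in GRgamma. GRgamma replicate 1 stood below the other 7 arrays, and the probe was detected on 3 of the 4 GRgamma arrays. The difference was -1.03 (SE 0.37) and was not called (limma adjusted p = 0.4), and the other kept probe moved by -0.19. The sources used here do not place these probes on the expressed constructs, and neither probe checks the alleles.

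Without hormone, 61 of 12547 genes (0.486%) differed between the lines, 17 higher in GRgamma (0.135% of genes) and 44 lower (0.351%). Those higher included testis-type genes that GRalpha arrays did not detect, a histone H4 gene, the homeobox gene LHX2 and the signalling brake RGS4. Those lower included genes of secreted and matrix proteins, of ion handling and of surface receptors. Differences of the higher genes ran from 1.00 to 6.74 with a median of 1.75, and those of the lower genes from -0.51 to -2.70 with a median of -1.36. With genes undetected in a group taken at their bound the medians were 1.39 and -1.31. All 4 GRgamma arrays lay above all 4 GRalpha arrays for 17 of the 17 higher genes (0.964% of all genes did), and below them for 38 of the 44 lower genes (1.59%). At an unadjusted p under 0.05 there were 749 genes (5.97%).

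These counts moved with the fit. With slide as a fixed block 25 genes were higher and 77 lower, the 61 among them. On the 3 slides that held an array of each line all 61 had the same sign in every slide. For the 17 higher and 38 lower genes whose groups did not overlap, that separation fixed the sign in advance, so this is no separate check. With only the 8 arrays fitted, 13 genes were called, all among the 61. The lower count was 22 without GRgamma replicate 1, 28 without GRgamma replicate 3 and 29 without GRalpha replicate 2. Called genes named by the rule given under processing numbered 36, and other called genes mentioned, such as STC1 and STEAP3, were not followed over the alternatives. Of the 36, 12 were called under every alternative run: H4C3, MAGEA10, MAGEB1, LHX2, RGS4, AURKC, F13A1, SHISA2, ICA1, MFAP5, IL13RA2 and KANK4. The other 24 lost their call with only the 8 arrays fitted, 8 of them in that fit alone. Arrays scaled to the same median, in place of quantile normalisation, also ended the calls of TGM2 (1.03), FCGRT (0.75), PRKAR1B (-1.27) and DLL1 (-0.79).

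**Figure D1:**
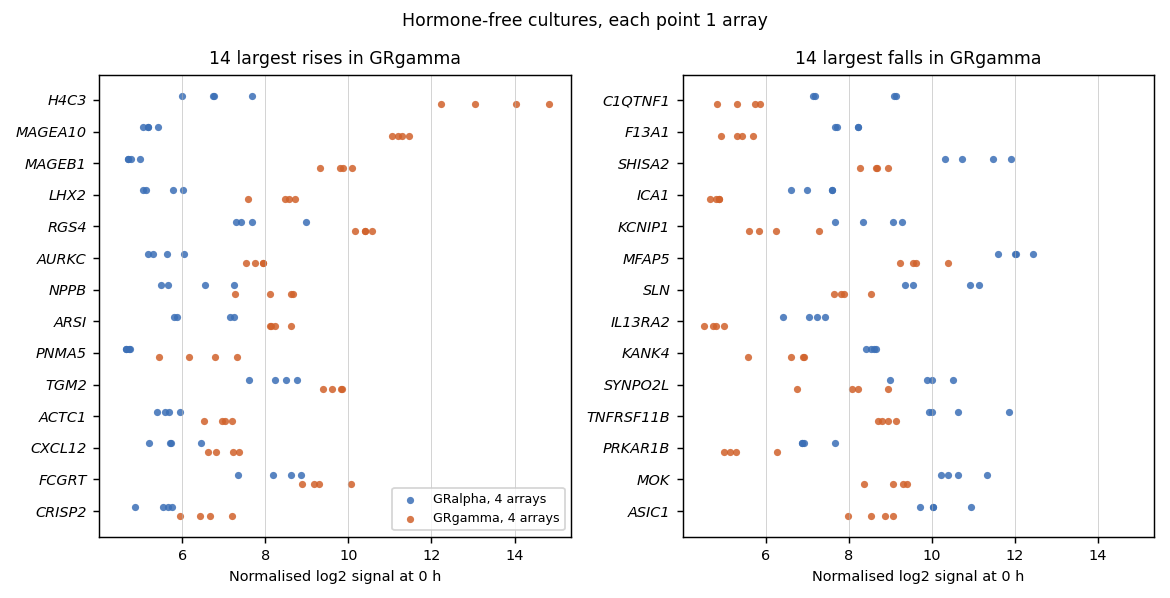
Normalised log2 signal at 0 h (horizontal axis) of the 14 genes with the largest rise and the 14 with the largest fall among called genes whose groups did not overlap. Each point is 1 array, blue for GRalpha and orange for GRgamma, and the orange and blue points of a gene do not overlap, by the choice of the genes.

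Genes normally read in the testis stood among the largest rises. MAGEA10, an X-linked cancer-testis antigen gene, read 5.18, 5.42, 5.05 and 5.17 in GRalpha and was detected on no array. In GRgamma it read 11.05, 11.47, 11.20 and 11.29, at least 44.7-fold higher (limma adjusted p = 2.2e-32), and its other kept probe averaged 5.02 and 6.73. MAGEB1, another X-linked antigen of the same family, read between 4.69 and 4.97 in GRalpha, again undetected. It read 9.80, 9.88, 10.08 and 9.32 in GRgamma, at least 15.9-fold higher (adjusted p = 1.2e-36). The antigen gene PNMA5, also on the X chromosome, is not on the cancer-testis list used below and is not counted here as a testis gene. It was at 4.64, 4.64, 4.71 and 4.73 in GRalpha, undetected, and at 6.78, 7.32, 6.17 and 5.45 in GRgamma, where 2 arrays detected it. Its difference was at least 1.57-fold (adjusted p = 4.9e-07), and with only the 8 arrays the adjusted p was 0.19 (from 2.2e-11 to 0.19 over its alternatives).

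AURKC, the Aurora kinase of meiosis, read 5.29, 6.03, 5.62 and 5.18 in GRalpha against 7.75, 7.94, 7.95 and 7.54 in GRgamma, a rise of 2.26 (SE 0.32, limma adjusted p = 1.5e-06). Every GRalpha array was below every GRgamma array, and 1 of the 4 detected the gene. CRISP2, which makes a sperm protein, rose by 1.11 (SE 0.25), from 4.86 to 5.75 in GRalpha to between 5.94 and 7.19 in GRgamma. Its call was lost without GRalpha replicate 2 (0.91) or GRgamma replicate 3 (0.90). The X chromosome held 3 of the 17 higher genes, 3 of the 44 lower genes and 3.8% of all genes.

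Most other cancer-testis genes were not called. Of 43 listed cancer-testis antigens 24 were measured, of which 2 rose, 0 fell and 22 were not called, where 0.135% of all genes rose. At an unadjusted p under 0.05 there were 7 of the 24, where 5.97% of all genes stood. The list had a median of -0.05 beside -0.03 for all genes. MAGEA1 was at 13.42 in GRalpha and 13.53 in GRgamma, MAGEA4 at 13.87 and 13.84, and MAGEC1 at 11.96 and 11.89. CTAG2, the gene of the antigen LAGE-1, was at 7.82 and 6.02 and was not called (-1.80, limma adjusted p = 0.061).

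The stretches just before the starts of 3 of the higher genes are printed because these genes stood at an undetected or barely detected level in GRalpha. The stretches are 250 bases before a RefSeq start in GRCh38.p14, read 5′ to 3′ in the sense of the gene, and capitals mark each CpG. MAGEB1 has 2 starts in the table, at chrX:30243481-30243730 and chrX:30246896-30247145, both on the plus strand. PNMA5 has 3 starts there, of which the first listed is shown, at chrX:152994117-152994366 on the minus strand and AURKC lies at chr19:57230773-57231022 on the plus strand.
MAGEB1 start 1: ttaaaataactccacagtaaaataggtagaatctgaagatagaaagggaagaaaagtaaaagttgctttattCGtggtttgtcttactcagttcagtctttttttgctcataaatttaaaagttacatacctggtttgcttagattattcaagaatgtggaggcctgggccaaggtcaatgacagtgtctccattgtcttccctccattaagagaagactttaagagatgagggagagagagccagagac
MAGEB1 start 2: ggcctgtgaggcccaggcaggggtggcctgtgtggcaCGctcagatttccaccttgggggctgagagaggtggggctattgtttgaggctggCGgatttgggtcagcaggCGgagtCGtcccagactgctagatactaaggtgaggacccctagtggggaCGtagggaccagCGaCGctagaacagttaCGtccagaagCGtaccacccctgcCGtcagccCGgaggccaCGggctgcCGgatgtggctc
PNMA5: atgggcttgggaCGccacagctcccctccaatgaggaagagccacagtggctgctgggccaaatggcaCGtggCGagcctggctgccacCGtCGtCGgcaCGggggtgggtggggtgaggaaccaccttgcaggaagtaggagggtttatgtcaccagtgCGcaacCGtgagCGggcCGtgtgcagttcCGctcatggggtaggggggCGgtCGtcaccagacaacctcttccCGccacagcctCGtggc
AURKC: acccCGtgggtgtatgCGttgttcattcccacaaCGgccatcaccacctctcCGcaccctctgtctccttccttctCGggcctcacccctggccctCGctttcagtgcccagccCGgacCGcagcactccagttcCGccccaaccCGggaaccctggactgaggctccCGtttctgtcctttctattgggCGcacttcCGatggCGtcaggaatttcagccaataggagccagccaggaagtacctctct
The first MAGEB1 stretch holds 1 CpG and 37.6% of C and G, and the second 13 CpG and 63.6%. PNMA5 holds 16 CpG and AURKC 14. DNA methylation of such sites is known to silence many testis genes in other tissues, and no methylation was measured here.

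Windows of 300 bases, which run on into the transcript, were matched by symbol for 10188 of the 12547 genes, 13 of the 17 higher and 30 of the 44 lower, with the first start of the table used. Median C and G shares were 63.3% for higher genes, 67.3% for lower genes and 64.3% for all, with 20, 22 and 25 CpG. The GR half-site letters AGAACA on either strand stood in 1 of 13 higher windows (FCGRT), 1 of 30 lower windows (ZBTB9) and 9.47% of all. AGAACA followed after 3 bases by TGTTCT stood in none of the 10188.

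The largest rise of all was that of H4C3, a replication-dependent histone H4 gene. It read 7.68, 6.00, 6.76 and 6.74 in GRalpha and 13.04, 14.84, 14.04 and 12.23 in GRgamma, a rise of 6.74 (SE 0.74, limma adjusted p = 1e-09). Histone H4 genes have near-identical coding copies, so which copy the probe reports is uncertain. LHX2, a LIM homeobox transcription factor of brain and limb development, was detected on 1 GRalpha array and 4 GRgamma arrays. It read 5.05, 5.13, 5.78 and 6.01 against 7.58, 8.57, 8.47 and 8.71, a rise of 2.84 (SE 0.32, adjusted p = 2.3e-09).

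Signalling genes stood among the other rises. RGS4, which speeds the shut-off of G proteins, read 8.97, 7.30, 7.41 and 7.67 in GRalpha and 10.40, 10.57, 10.15 and 10.41 in GRgamma, 5.83-fold higher (SE of the log2 difference 0.37, limma adjusted p = 3.7e-06). It was the member called among 32 measured regulators of G protein signalling, where 0.135% of all genes were called higher. CXCL12, the chemokine ligand of CXCR4, rose by 1.24 (SE 0.27), from between 5.21 and 6.46 to between 6.63 and 7.36. That call was lost without GRalpha replicate 4 (1.05) or GRgamma replicate 1 (1.12). NPPB, the gene of B-type natriuretic peptide, rose by 1.93 (SE 0.41), with GRalpha replicate 3 at 7.25 just under GRgamma replicate 4 at 7.27. It lost its call without GRalpha replicate 1 (1.68).

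The other named rises were those of ACTC1, TGM2, ARSI and FCGRT. ACTC1, cardiac alpha actin, rose by 1.29 (SE 0.25, limma adjusted p = 0.0017). TGM2, a protein-crosslinking transglutaminase, rose by 1.39 (SE 0.32), a call lost without GRalpha replicate 2 (1.16) or GRgamma replicate 3 (1.33). With the mean of its kept probes TGM2 was at 0.80. ARSI, a sulfatase gene, rose by 1.76 (SE 0.41), and its GRalpha arrays split between 5.79 and 5.87 on 1 side and 7.15 and 7.24 on the other. The ARSI call was lost without GRalpha replicate 1 or 2 (1.55 and 1.52) and without GRgamma replicate 1 or 4 (1.78 and 1.65). FCGRT, the heavy chain of the neonatal Fc receptor, rose by 1.11 (SE 0.25), a call lost without GRalpha replicate 4 (0.80) or GRgamma replicate 1 (0.87).

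Genes of secreted and matrix proteins held several of the largest falls. C1QTNF1, a secreted C1q and TNF related protein, read 9.09, 9.13, 7.18 and 7.13 in GRalpha and 5.31, 5.85, 5.73 and 4.83 in GRgamma, where no array detected it. It was at least 4.09-fold lower (limma adjusted p = 2.8e-07), its GRalpha arrays fell into a high and a low pair, and its other kept probes, detected on at most 1 array a group, moved by 0.16 and -0.32. F13A1, the A chain of coagulation factor XIII, read 8.21, 7.71, 7.66 and 8.22 against 4.93, 5.31, 5.42 and 5.70. It was at least 3.6-fold lower (adjusted p = 2.9e-06).

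MFAP5, a glycoprotein of elastic microfibrils, was abundant in both lines but 5-fold lower in GRgamma. The GRalpha arrays read 12.01, 12.44, 11.58 and 12.03 and the GRgamma arrays 10.38, 9.55, 9.61 and 9.22 (difference -2.32, SE 0.30, limma adjusted p = 1.4e-07). TNFRSF11B, the decoy receptor osteoprotegerin that restrains osteoclasts, read 9.94, 11.86, 10.01 and 10.62 against 9.13, 8.69, 8.80 and 8.93. Its fall of 1.72 (SE 0.38) lost its call without GRalpha replicate 2 (-1.30), the highest array. IGFBP7, an insulin-like growth factor binding protein, was at -1.36 (SE 0.31), a call lost without GRalpha replicate 1 or 3 (-1.18 and -1.28) or GRgamma replicate 1 or 4 (-1.29 and -1.25). GAS6, a ligand of the TAM receptor kinases, was at -0.97 (SE 0.18), with its other kept probes at -0.90 and -0.60 and no call for the mean of the probes (-0.82). COL8A1, a collagen VIII chain, was at -1.50 (SE 0.29) and at -1.13 without GRgamma replicate 1, where the call was lost. These genes are grouped by known role. Of 34 listed matrix proteins and enzymes measured none was called by limma (0.351% of all genes were called lower). At an unadjusted p under 0.05 there were 0 of them (5.97% of all genes). Of 22 listed collagens COL8A1 was the 1 called. COL8A2, the other collagen VIII chain, is not on the list and was also called lower (-1.36, adjusted p = 6e-04).

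Falls with roles in calcium handling, ion channels and the contractile apparatus were also put together by known role. Of 29 listed ion channels measured, a list without ASIC1, none was called by limma (0.351% of all genes were called lower). At an unadjusted p under 0.05 there were 4 of them (5.97% of all genes). SLN, the gene of sarcolipin, which inhibits the calcium pump of muscle, read 10.91, 9.36, 11.13 and 9.55 in GRalpha and 7.87, 8.52, 7.81 and 7.64 in GRgamma (difference -2.28, SE 0.38, limma adjusted p = 7.6e-05). KCNIP1, a calcium-binding partner of potassium channels, read 9.07, 9.29, 7.67 and 8.33 against 5.84, 7.29, 5.59 and 6.25 (difference -2.35, SE 0.40). GRgamma replicate 2 came nearest to the GRalpha range in both genes. ASIC1, an acid-sensing sodium channel, was at -1.57 (SE 0.29), and SYNPO2L, an actin-binding protein of the muscle Z-disc, at -1.85 (SE 0.35). These 4 calls were lost with only the 8 arrays fitted (adjusted p = 0.098, 0.11, 0.21 and 0.38). The ranges over their alternatives were 3.7e-06 to 0.098, 1.3e-06 to 0.11, 1.7e-09 to 0.21 and 2.9e-05 to 0.38. KANK4, a scaffold of the KANK family, read 8.40, 8.61, 8.52 and 8.65 against 5.58, 6.93, 6.89 and 6.60 (difference -2.04, SE 0.31).

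Falls with roles at the cell surface included SHISA2 and IL13RA2. SHISA2, of a family whose founding member in Xenopus holds back Wnt and FGF receptors, read 11.47, 11.91, 10.31 and 10.72 in GRalpha and 8.94, 8.27, 8.66 and 8.68 in GRgamma. It was 5.53-fold lower (SE of the log2 difference 0.28, limma adjusted p = 3.2e-09). IL13RA2, the decoy receptor of interleukin-13, read 7.43, 6.41, 7.04 and 7.24 in GRalpha and was detected on no GRgamma array, at least 1.9-fold lower (adjusted p = 0.00011). Of 21 measured integrins and cadherins, 2 fell and 19 were not called, where 0.351% of all genes fell. They were ITGB2, the beta chain of leukocyte integrins, at -1.48 (SE 0.28), and ITGB8, a partner of the alpha V chain, at -1.56 (SE 0.39). The ITGB8 call was lost without GRalpha replicate 2 or 4 (-1.34 and -1.46) and without GRgamma replicate 1, 2 or 3 (-1.44, -1.59 and -1.55).

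The NOTCH list had 1 of 14 measured genes called, the WNT list 1 of 26 and the list of blood markers 1 of 10, each lower in GRgamma (0.351% of all genes). DLL1, a NOTCH ligand, was detected on 4 GRalpha and 2 GRgamma arrays and was at -1.19 (SE 0.29). Its call was lost without any of GRalpha replicates 1, 2 and 4 (-1.10, -1.19 and -1.18) or GRgamma replicates 1 and 3 (-0.99 and -1.02). WNT5B, a Wnt ligand, was at -1.11 (SE 0.25) with overlapping groups, a call lost without GRalpha replicate 3 (-0.91), GRgamma replicate 1 (-0.89) or GRgamma replicate 3 (-1.09). CD34, a surface sialomucin of blood stem and endothelial cells, was at -0.84 (SE 0.20), with overlapping groups. Its call was lost without GRalpha replicate 1 or 2 (-0.74 each) or GRgamma replicate 1 (-0.64).

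Among the remaining large falls, ICA1, the gene of an islet cell autoantigen, read between 6.60 and 7.59 in GRalpha. Its GRgamma values of 4.80, 4.86, 4.65 and 4.86 were all undetected, so that it was at least 2.13-fold lower (limma adjusted p = 4.2e-09), although its other kept probe moved by -0.10. PRKAR1B, a regulatory subunit of protein kinase A, was at -1.66 (SE 0.37), a call lost without GRalpha replicate 1 (-1.47) or GRgamma replicates 1 or 3 (-1.57 and -1.53). MOK, a kinase related to the MAP kinases, was at -1.60 (SE 0.32), and at -1.38 without GRgamma replicate 1, where the call was lost. Over the 61 genes, 18 had another kept probe, and 22 of those 23 probes had the sign of the main one.

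Of 25 measured glucocorticoid-induced genes none was called by limma, where 0.486% of all genes were. At an unadjusted p under 0.05 there were 5 of the 25, where 5.97% of all genes stood. The absence of a call among so few genes does not show that the lines were alike in them. Their median was -0.16 beside -0.03 for all genes. SGK1, a kinase of sodium transport, was at 12.39 in GRalpha and 11.68 in GRgamma, TSC22D3, the gene of the leucine zipper GILZ, at 9.57 and 9.60, and KLF9 at 11.90 and 11.62. PDK4, which restrains pyruvate oxidation, was at 5.62 and 6.55 and was not called (0.93, adjusted p = 0.5). Over 38 gene lists, 27 had no member called, and of 750 list genes measured 4 were higher and 9 lower (0.135% and 0.351% of all genes). The 9 were 3 without GRgamma replicate 1, 5 without GRalpha replicate 2 and 0 with only the 8 arrays fitted. Lists of S phase, mitosis, interferon, hypoxia, unfolded protein and apoptosis genes had none called, with medians between -0.14 and 0.16.

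Markers were read to check the cells. VIM, CAV1 and COL1A1, genes of mesenchymal cells, were at 15.35, 13.91 and 14.22 in GRalpha and at 15.25, 13.85 and 14.44 in GRgamma, while COL1A2 was undetected in both. Of 12 measured epithelial markers none was called, with KRT5 undetected and EPCAM at 6.94 and 7.07. Of 10 blood markers 1, CD34, fell (0.351% of all genes did), PTPRC was detected on 1 and 2 arrays, and HBB and CSF1R on none. None of 6 liver and 8 endothelial markers was called, and ALB was undetected. Summed linear signals overlapped between the lines for each of these lists, the blood markers at 924 to 1370 in GRalpha and 741 to 998 in GRgamma.

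Hormone was given to other cultures of the same lines, so the later times offer separate arrays. At 2 h 37 of the 61 genes were called with the same sign, where 1.19% of all genes were called. By direction these were 12 of the 17 higher genes (0.47% of all genes) and 25 of the 44 lower (0.717%). At 4 h the 39 genes (1.81% of all) were 10 higher (0.685%) and 29 lower (1.12%). At 24 h the 24 genes (5.28% of all) were 8 higher (2.57%) and 16 lower (2.7%). Without GRgamma replicate 1 the shared lower genes numbered 15, 16 and 8 at 2, 4 and 24 h, and without GRgamma replicate 3 they numbered 10 at 24 h. Scaling to the same median gave 14, 19 and 9. A set of 18 was called the same way at 2, 4 and 24 h, 7 higher and 11 lower. Of all genes, no more than the 2 h shares of 0.47% and 0.717% could be called so at each of these times. At no later time were 10 called, among them NPPB, ACTC1 and WNT5B.

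MAGEA10, MAGEB1, PNMA5 and AURKC were called higher at each later time. GRalpha arrays did not detect MAGEB1 at 2, 4 or 24 h, where it was at least 17.3-fold, 17.5-fold and 14.7-fold higher in GRgamma. For PNMA5, again undetected in GRalpha, the bounds were at least 1.63-fold, 1.77-fold and 1.44-fold. MAGEA10 was undetected in GRalpha at 2 and 4 h, at least 46.9-fold and 49.2-fold higher in GRgamma, and averaged 5.64 and 11.45 at 24 h, when 2 GRalpha arrays detected it. AURKC differed by 1.86, 2.15 and 2.20. CRISP2 was called at 4 h (1.04, limma adjusted p = 0.0092) but not at 2 or 24 h (0.67 at both, adjusted p = 0.33 and 0.14). MFAP5 differed by -2.21, -2.45 and -2.50, while its mean went from 12.01 at 0 h to 10.77 at 24 h in GRalpha and from 9.69 to 8.27 in GRgamma. ICA1, undetected in GRgamma at each later time, was at least 2.59-fold, 1.91-fold and 6.24-fold lower there. LHX2, undetected in GRalpha at those times, was at least 6.43-fold, 5.39-fold and 3.57-fold higher in GRgamma. STC1, the hormone gene of stanniocalcin, was named after its values were seen: it was at -1.55 at 0 h (limma adjusted p = 0.0047) and at -5.78 at 24 h (adjusted p = 2.2e-23).

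Other differences were no longer called at 24 h. Among the higher genes, RGS4 differed by 2.16 at 2 h and 1.38 at 4 h. At 24 h no GRalpha array detected RGS4, which was at least 1.33-fold higher in GRgamma and not called (limma adjusted p = 0.14). TGM2 differed by 1.35, 0.83 and 0.04 at 2, 4 and 24 h. Of the 44 lower genes 20 were called at 2 or 4 h but not at 24 h. Of all genes, 0.717% were called lower at 2 h, 1.12% at 4 h and 2.7% at 24 h. F13A1 averaged 7.95, 8.04, 7.49 and 4.77 in GRalpha at 0, 2, 4 and 24 h and 5.34, 5.87, 5.71 and 4.94 in GRgamma at those times. KCNIP1 went from 8.59 to 4.97 in GRalpha and from 6.24 to 5.21 in GRgamma. C1QTNF1 was at 8.13 in GRalpha and 5.43 in GRgamma at 0 h and at 7.43 and 7.70 at 24 h. SLN went from 10.24 to 13.25 in GRalpha and from 7.96 to 14.06 in GRgamma. At 24 h F13A1 and KCNIP1 were undetected in both lines, and the differences of C1QTNF1 and SLN were 0.27 and 0.81, neither called. STEAP3, a metalloreductase gene, was called in the opposite direction at 24 h (-1.10 at 0 h, 1.08 at 24 h), and is named because it was the single such case.

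A test of the difference itself singled out SHISA2. Its gap of -2.47 at 0 h was -0.15 at 4 h, a change of 2.32 (limma adjusted p = 0.00028), and it was the 1 gene of the 61 called in that test (0.359% of all genes were). GRalpha rose from 11.10 to 12.15 and GRgamma from 8.64 to 12.00. By 24 h the gap was again -1.34 (adjusted p = 0.00054). The ethanol cultures were kept for 4 h, so at 24 h hormone and time in culture cannot be told apart.

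**Figure D2:**
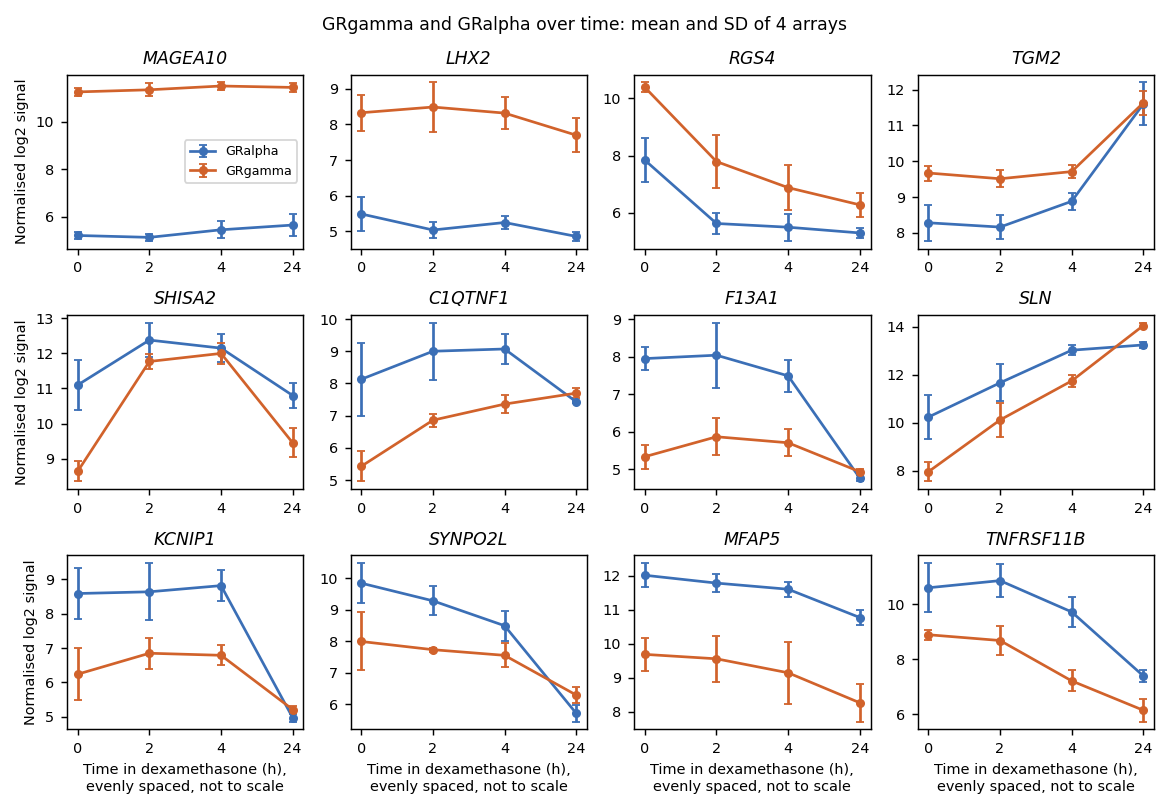
Normalised log2 signal (mean and SD of 4 arrays) of 12 genes in GRalpha (blue) and GRgamma (orange) at 0, 2, 4 and 24 h of dexamethasone, with times evenly spaced. The lines stay apart for MAGEA10, LHX2 and MFAP5 and lie close at 4 h for SHISA2. They are not called apart at 24 h for RGS4, TGM2, C1QTNF1, F13A1, SLN, KCNIP1 and SYNPO2L.

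Hormone-free cells of the other alleles lay near GRalpha for some genes and near GRgamma for others. MAGEB1 averaged 4.90, 5.10 and 5.08 in A477T, 30iiB and E773R, undetected on all 12 arrays, against 9.77 in GRgamma. PNMA5 was likewise undetected there, at 4.78, 4.79 and 4.70. MAGEA10 in A477T, 30iiB and E773R averaged 9.87, 10.32 and 9.80, nearer to GRgamma at 11.26 than to GRalpha at 5.21. C1QTNF1 was undetected in the other alleles too (5.05, 4.95 and 4.83), so that its level of 8.13 in GRalpha stood alone.

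All 4 GRgamma arrays lay above the other 16 hormone-free arrays for 7 of the 17 higher genes (0.0956% of all genes) and below them for 10 of the 44 lower genes (0.183%). Besides MAGEA10, MAGEB1 and PNMA5, the first set held AURKC, ARSI, GOLM1 and PLEK2. In the second stood MFAP5, IL13RA2, SHISA2, ICA1, IGFBP7, COL8A1, DLL1, STC1, EPDR1 and PGM1. MFAP5 averaged 12.36, 13.25 and 11.50 in the other alleles against 9.69 in GRgamma. The 4 GRalpha arrays lay outside the other 16 for H4C3, MAGEA10 and ASTN1, below (0.0399%), and for C1QTNF1 and FAM20C, above (0.0319%). The compared groups themselves chose these genes, so the counts describe where the other alleles fell.

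Some genes were intermediate or split the alleles. H4C3 averaged 9.12, 9.51 and 11.43 in A477T, 30iiB and E773R, between GRalpha at 6.79 and GRgamma at 13.54. LHX2 was high in A477T (8.19) and E773R (8.76), as in GRgamma (8.33), but at 5.78 in 30iiB, near GRalpha at 5.49. RGS4 was at 10.41 in 30iiB, beside 10.38 in GRgamma. Over the 17 higher genes, 6 had none of the other alleles nearer GRgamma than GRalpha and 3 had all 3. Over the 44 lower genes these numbers were 13 and 3, where 25.9% and 23.8% of all genes did so.

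**Figure D3:**
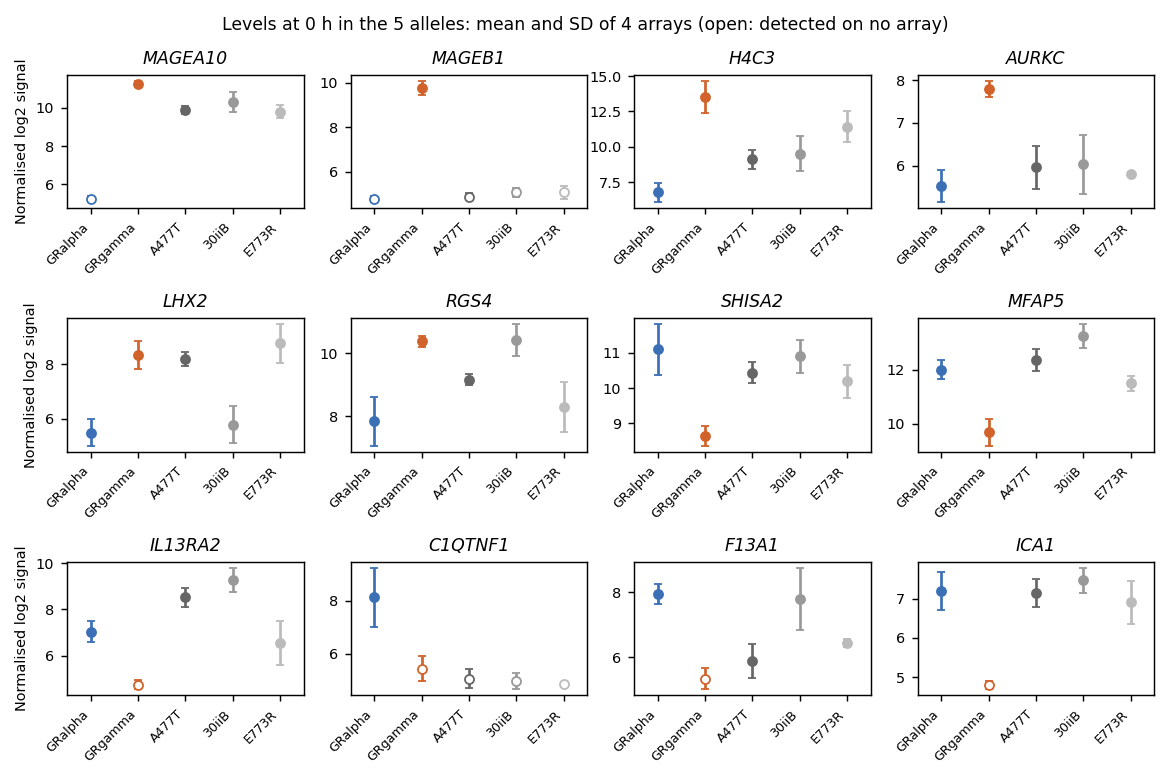
Normalised log2 signal at 0 h (mean and SD of 4 arrays) of 12 genes in the 5 alleles. Open points mark alleles in which no array detected the probe: MAGEB1 is detected in GRgamma alone, C1QTNF1 in GRalpha alone, and MAGEA10 in every allele but GRalpha.

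Whether these genes answer to hormone was read in the alleles that the comparison did not use. At 4 h against 0 h in A477T, DLL1 rose by 2.02, SHISA2 by 1.10 and FBXO32, a muscle ubiquitin ligase gene, by 1.70, while RGS4 fell by 1.69 (3.33% of all genes were called, 1.92% higher and 1.41% lower). In 30iiB RGS4 fell by 3.85 (limma adjusted p = 1.1e-12), SYNPO2L by 2.02 and TNFRSF11B by 1.56, with ANKRD34A also lower (4.42% of all genes, 2.38% higher and 2.03% lower). SHISA2, DLL1 and FAM20C rose there by 1.42, 1.17 and 1.32. C1QTNF1, undetected at 0 h in both alleles, rose at least 3.65-fold in A477T and at least 1.92-fold in 30iiB, and SRSF12, undetected at 0 h in 30iiB, at least 1.41-fold there. E773R held 3 calls (1.14% of all genes, 0.741% higher and 0.399% lower): RGS4 fell by 1.90, TNFRSF11B fell by 1.63 and SLN rose by 1.65. Of the 17 genes higher in GRgamma, RGS4 was thus the 1 gene called in each of these alleles, and MAGEA10, MAGEB1, LHX2, H4C3 and AURKC were called in none of the 3. MAGEB1 was undetected in all 3 at both times, so a fall could not have been seen. AURKC stood near the detection limit there, with means between 5.59 and 6.09. For these genes the absence of a call does not show that they do not respond.

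Neighbouring genes were compared along each chromosome. Medians of whole chromosomes, less the median of all genes, ran from -0.08 on chromosome 7 to 0.10 on chromosome 19. The SD of the array medians in GRalpha and GRgamma was 0.03 and 0.02 on chromosome 7 but 0.17 and 0.13 on chromosome 19, whose value was 0.01 without GRalpha replicate 4, 0.06 without GRgamma replicate 1 and 0.05 with series matrix values. The chromosome 7 value was -0.05 with series matrix values and with no background correction. Chromosome 7 held 8 of the 44 lower genes and 4.36% of all genes. Running medians over 30 genes, ordered by the RefSeq table, passed 0.3 in size in 5 stretches, and the stretches are named after their values were seen. Their medians, shares of genes of a sign and gaps between arrays at 0 h thus follow in part from that choice.

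The first was on chromosome 7, from GPER1 to AQP1, with 91 measured genes at a median of -0.34. Of these genes 79.1% were lower in GRgamma at 0 h, and 81.3% on the separate arrays of 4 h. Each array's median over these genes, relative to GRalpha, was -0.05, 0.03, -0.07 and 0.18 in GRalpha and -0.30, -0.38, -0.30 and -0.33 in GRgamma. The groups did not overlap, which the choice of the stretch on these same arrays favours. The called genes ICA1, ITGB8, NUP42 and GSDME lie there (0.351% of all genes were called lower). On the separate arrays of 2, 4 and 24 h the difference was -0.32, -0.32 and -0.28. E773R arrays were also low at 0 h (mean -0.31), whereas A477T and 30iiB were at -0.08 and -0.05. A second stretch on the same chromosome, from LSM5 to EGFR with 60 genes, was at -0.31, with E773R at -0.33, and holds EPDR1.

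On chromosome 9, 98 genes from EXOSC2 to CACNA1B had a median of 0.36, and 86.7% were higher in GRgamma (85.7% at 4 h). None of them was called at 0 h (limma adjusted p under 0.05), while 0.135% of all genes were called higher. GRgamma arrays read 0.41, 0.50, 0.36 and 0.26 and GRalpha arrays 0.08, -0.04, 0.15 and -0.18. The other alleles averaged 0.14, -0.15 and 0.13 there, and the later times gave 0.40, 0.38 and 0.38. On chromosome 17, 66 genes from HOXB7 to OR4D2 were at 0.33, with 0.36, 0.40 and 0.31 later. The series matrix values gave -0.21 for the stretch from LSM5 to EGFR and 0.19 for the one on chromosome 17. On chromosome 11 the 34 genes from BET1L to CHID1 were at 0.30, with overlapping arrays, and at 0.13 without GRgamma replicate 1, 0.18 without GRalpha replicate 4 and 0.16 with series matrix values. U2OS cells are known to carry a rearranged genome, DNA copy number was not measured here, and its part in these stretches was not tested.

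**Figure D4:**
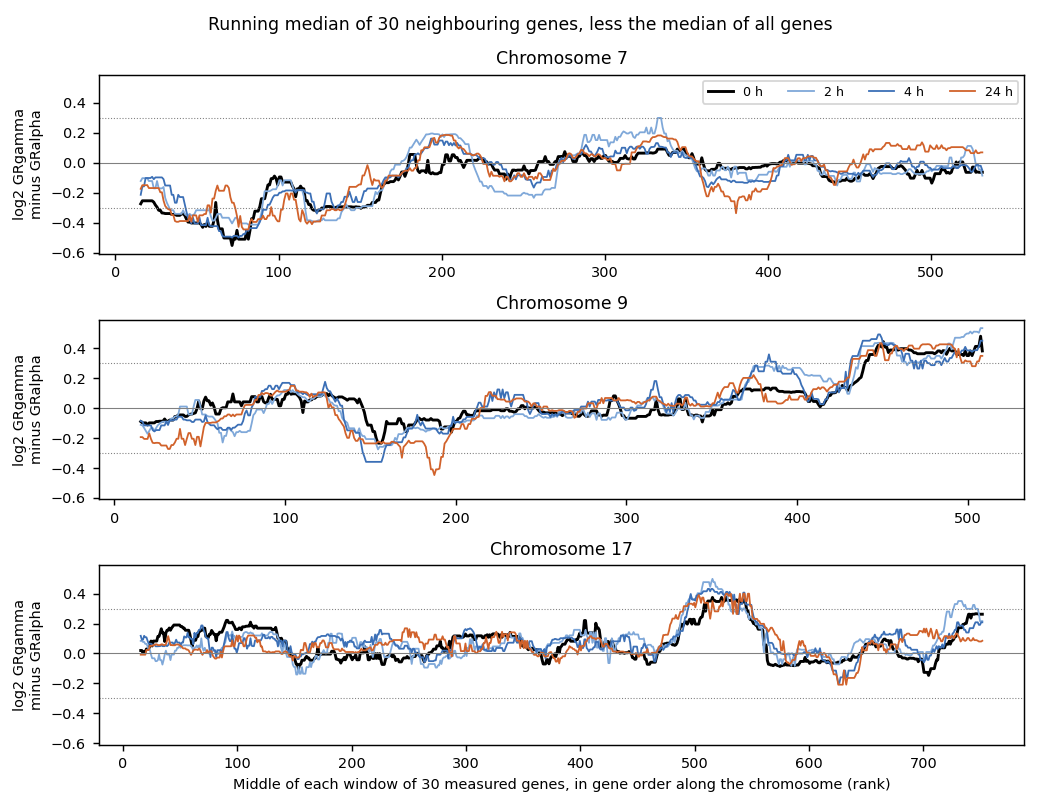
Running median of the GRgamma minus GRalpha log2 difference over 30 neighbouring measured genes, less the median of all genes, against gene order on chromosomes 7, 9 and 17. Black is 0 h and the coloured lines are 2, 4 and 24 h, and dotted lines mark 0.3 in either direction. The low stretch at the start of chromosome 7 and the high stretches late on chromosomes 9 and 17 appear at each time.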

How the data were processed

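The deposited signal table gave, per the file headers, an intensity and a detection p-value for each of 25204 probes on each of 80 arrays, without scaling between arrays. The series matrix was deposited with log2 values for 21241 probes (median slope 0.963 against log2 intensity, array medians 7.89 to 7.97) and served as an alternative. The sources used here do not give its normalisation. Every value column matched a sample (0 without one), and each of the 80 arrays matched its own column of the series matrix best.

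Platform annotation named 1 gene for 19291 probes and none for 5913, and symbols of 19274 were updated by gene ID. Probes with detection p under 0.05 on at least 4 arrays were kept (15392), and the brightest represented each of 12547 genes. The neqc function (limma 3.58.1, R 4.3.3; data.table, version 1.17.8) applied normexp correction, an offset of 16, quantile normalisation and log2. A limma model of 20 group means had 60 residual and 5.54 prior degrees of freedom, moderated by eBayes. Figures used matplotlib 3.10.9 in Python 3.11.15. The fit was tested on simulated data.

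Where no array of a group detected a gene, "at least" compares the brighter group with a floor: per array, the gene's value or the lowest detected value (5.48 to 7.10), whichever was higher. Array number limits precision. Named genes were NR3C1, the 14 largest rises and falls among called genes with separate groups, and up to 4 called members of each list. Members, lists and rules were chosen with earlier results of these data known. Arrays lay on 10 slides of 8, read from array names. Deviations of same-numbered samples correlated at 0.288, -0.0446, -0.275 and 0.391. The main fit did not pair samples by number, and so few values cannot exclude such a pairing. Alternatives changed the slide or replicate block, arrays fitted, scaling, background, filter, probe rule, weights and source table, or left out an array; those for neighbouring genes were added after seeing the data. Promoter stretches come from RefSeq (GRCh38.p14).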

Additional observations from a re-analysis of the deposited data

Results flagged for a closer look

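PRKAR1B read 7.66 in GRalpha replicate 1, apart from the other GRalpha arrays at 6.87 to 6.93. Its gap to the nearest array was 0.925 of the group's range, above Dixon's limit for 4 arrays. Such gaps were looked for in 74 groups of 4 (37 genes in both lines), and chance alone flags about 1 group in 20. For SHISA2 the difference between the lines at 4 h was higher than that at 0 h by 2.32 (limma adjusted p = 0.00028).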

How the results depend on the processing

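No gene named by the rule reversed its sign in the 701 values computed, and 81 lost their call. Of these, 24 were lost with only the 8 arrays fitted, 39 without an array and 18 otherwise. For genes whose groups did not overlap, leaving out an array could not reverse the sign. The remaining alternatives used the same arrays, so the kept signs are no separate check. With slide as a fixed block 77 genes were lower at 0 h, 41 and 30 of them also at 2 and 24 h, and 14 list members were lower. As a random block these were 77, 39, 29 and 14. With only the arrays of the compared groups, 6 genes were higher, 4 and 5 of them also at 2 and 4 h, 7 were lower, 1, 5 and 5 of them also at 2, 4 and 24 h, and 0 list members were lower (limma; 749 genes stood at an unadjusted p under 0.05 in the 80-array fit). Series matrix values gave 61 higher genes, 38, 37 and 32 of them also at the later times, 168 lower, 88, 98 and 73 of them also later, 10 list members higher and 24 lower, and a chromosome 7 median of -0.05, as did no background correction (-0.05). Of the genes called, 27.9% were higher, 46.2% with the 8 arrays and 38.9% without GRgamma replicate 1. Scaling to the same median put the median of all genes at -0.20 and called 51 genes, with 14, 19 and 9 lower genes also lower at 2, 4 and 24 h. The cause of these shifts was not tested.

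Leaving out each array gave 13 to 22 higher and 22 to 50 lower genes, with 10 to 12, 8 to 10 and 6 to 10 of the higher and 15 to 24, 16 to 27 and 8 to 14 of the lower also called at 2, 4 and 24 h, and 3 to 5 list members higher and 3 to 9 lower. Chromosome medians then ran from -0.11 to -0.06 on chromosome 7 and from 0.01 to 0.15 on chromosome 19. The replicate number as a block called 68 genes, 18 higher and 50 lower. The 5 stretches of neighbouring genes kept their sign under 10 alternatives added after seeing the data. The stretches were chosen on these same arrays, so the kept signs are no separate check. Signal near background limits genes detected on no array of a group to a bound.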
